A study of Mus musculus with 4 samples.

Results

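The endothelin system was followed in bronchoalveolar stem cells (BASCs) with and without c-Myc, on 4 Affymetrix Mouse Genome 430 2.0 arrays. Its members were the ligand genes Edn1, Edn2 and Edn3, the receptor genes Ednra and Ednrb, and the converting enzyme genes Ece1 and Ece2. Every probe set whose platform annotation gave exactly 1 of these symbols was taken, which gave 14 probe sets of 45,037 and 6 genes of 18,193 with a symbol of their own. Ednra had 0 probe sets under its symbol and was not analysed here. The 7 genes were selected on the measured difference between Myc-depleted and control arrays, that is, with these values already in view, so their differences are given as a description, without a test.

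The Myc-depleted group (2 arrays) was BASCs depleted of c-Myc. The paper depleted it with a lentivirus carrying a short hairpin RNA against c-Myc, and made stable lines under puromycin over several generations. It does not state that the arrays used these stable lines. The control group (2 arrays) was BASCs with c-Myc, which the study calls wild type. Both groups descended from CD31-, CD45-, CD34+, Sca-1+ cells sorted from lungs of ICR mice aged 4 to 6 weeks and plated on irradiated mouse embryonic fibroblasts. The sources used here do not say whether the control cells of the arrays received a control virus or puromycin, so infection and selection cannot be told apart from depletion. Nor do they say which hairpin was on the arrays or whether each array of a group had a culture of its own. Any p-value therefore reflects no more than how far these 4 arrays scatter, and that scatter may be technical.

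Endothelins are short vasoactive peptides cut from larger precursors. Ece1 and Ece2 encode membrane metalloproteases that make the last cut, from the inactive big endothelin to the active peptide. The peptides act through 2 G protein-coupled receptors: the type A receptor (Ednra) binds endothelin 1 and endothelin 2 more tightly than endothelin 3, whereas the type B receptor (Ednrb) binds all of them alike. In lung, Edn1 is known from endothelium and airway epithelium, and the type B receptor from capillary endothelium, where it clears circulating endothelin 1. Ednrb and Edn3 are also needed by the neural crest cells that form pigment cells and enteric neurons.

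The promoters are shown for the members that the description turns on most, Ednrb and Edn1, and for the 1 member promoter that carries CACGTG, the E-box word that c-Myc with Max binds. RefSeq (GRCm38.p6) gave 10 start windows for 7 of 7 member genes, each of 300 bases (250 before the start and 50 after it). The 250 bases before the start are printed 5′ to 3′ on the gene's strand, and capitals mark CACGTG.
Ednrb, chr14:103843702-103843951, minus strand: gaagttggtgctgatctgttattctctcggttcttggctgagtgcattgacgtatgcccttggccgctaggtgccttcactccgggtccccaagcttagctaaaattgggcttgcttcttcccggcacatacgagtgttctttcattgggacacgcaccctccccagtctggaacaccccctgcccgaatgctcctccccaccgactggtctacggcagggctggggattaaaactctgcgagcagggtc
Edn1, chr13:42301226-42301475, plus strand: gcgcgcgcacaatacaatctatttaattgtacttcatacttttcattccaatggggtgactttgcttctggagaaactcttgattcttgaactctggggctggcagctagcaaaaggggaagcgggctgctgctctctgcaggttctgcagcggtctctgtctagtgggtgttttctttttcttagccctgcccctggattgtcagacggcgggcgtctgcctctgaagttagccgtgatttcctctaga
Ece1, start 3 of 4, chr4:137913308-137913557, plus strand: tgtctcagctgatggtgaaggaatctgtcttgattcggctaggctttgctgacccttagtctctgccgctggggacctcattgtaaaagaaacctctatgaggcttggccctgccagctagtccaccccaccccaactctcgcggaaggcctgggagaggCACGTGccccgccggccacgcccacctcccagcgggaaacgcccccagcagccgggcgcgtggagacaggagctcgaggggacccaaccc
CACGTG reads the same on both strands. It was found in 1 of the 10 member windows, that of Ece1 start 3, where its first base lay 90 bases before the start. Over all 32,851 RefSeq windows of the same length, 7.15% held it. The looser word CANNTG, which covers CACGTG, stood in 72.3% of all windows and in neither the Ednrb window nor the Edn1 window. The windows of Edn2 and of Ece1 start 1 also lacked it, and the remaining member windows held it. A match is a description of the letters and not a binding site, and a window without a match says only that these letters are not in it.

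Levels are given on a log2 scale, probe set by probe set, and differences are Myc-depleted minus control. The array medians lay between 5.48 and 5.49. A probe set entered the tests when its mean over the 4 arrays reached log2 5.08, the 40th percentile of all probe sets, which 8 of the 14 member probe sets did. The other 6 lay among the dimmest 40% and their values say little about the amount of message. Myc itself was read by 1 probe set and stood at 8.35 and 8.50 on the Myc-depleted arrays, against 9.21 and 9.69 on the control arrays. This is 49.2% of the control level on the linear scale, with no overlap between groups (difference -1.02, limma unadjusted p = 0.00765, Benjamini-Hochberg adjusted p = 0.363).

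The arrays also differed in a way that crossed the groups. In the 4 poly-A spike-in controls, the mean 3′ signal exceeded the mean 5′ signal by 3.67 on Myc-depleted array 1 and by 1.50 on Myc-depleted array 2, against 1.62 on control array 1 and 3.01 on control array 2. Over all probe sets, Myc-depleted array 1 correlated more closely with control array 2 (r = 0.990) than with Myc-depleted array 2 (r = 0.981). The control arrays did not show this: they correlated most closely with each other (r = 0.991), just above control array 1 with Myc-depleted array 2 (r = 0.990). Of the cell type markers, fibroblast genes (6 of 7) and pericyte and smooth muscle genes (8 of 8) lay above the low-value threshold. Their array means were 9.40 to 9.66 on Myc-depleted arrays and 9.47 to 9.61 on control arrays for the fibroblast list, and 8.78 to 8.87 on Myc-depleted arrays against 8.88 to 8.96 on control arrays for the pericyte list. Single genes of these lists differed either way without overlap, such as Pdgfra (1.23), Dcn (0.67) and Thy1 (-1.26) of the fibroblast list and Notch3 (0.86) and Cspg4 (-0.76) of the pericyte list. Thy1 read below the threshold on both Myc-depleted arrays. Of the lung epithelium list, 7 of 10 genes lay below the threshold, and Epcam, Sftpb and Aqp5 lay above it. Among those below were Sftpc and Scgb1a1, the surfactant and secretory genes that define BASCs. These are RNA values: the paper saw both proteins by immunostaining in most colonies after repeated passage. It also reported the array mRNA of both as unchanged by depletion. Here Sftpc differed by 0.37 and Scgb1a1 by 0.18, both without overlap, at levels too dim to say much about the amount of message. Epcam differed by 0.65 without overlap. Its probe set has the ending x, which marks probes shared between transcripts, so this value may not be that of Epcam alone. Cdh1, Krt8 and Krt18, also of the lung epithelium list, lay below the threshold. Of the blood list, 2 of 5 genes lay above the threshold, Csf1r (mean 9.38 over the 4 arrays) and Cd3e (5.97). Of the sort markers, Cd34, Pecam1 and Ptprc were below it, and Ly6a, the Sca-1 gene, had no probe set under its symbol. The paper's results describe later culture on collagen-coated dishes, whereas its methods describe passage onto the embryonic fibroblasts. Remaining feeder fibroblasts cannot be told apart from expression by the BASCs.

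The tests across all probe sets give the background for the member counts. limma called 0 of 27,022 probe sets at an adjusted p under 0.05, which is 0%, while 2,726 had an unadjusted p under 0.05. The test that the methods name, run with the group as its factor, also called 0 after Benjamini-Hochberg adjustment. A fold above 2 with an unadjusted limma p under 0.05 held for 316 probe sets, or 1.17%. Of all 45,037 probe sets, 211 (0.469%) were over 2-fold higher in Myc-depleted cells.

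Ednrb, the type B receptor gene, showed the widest separation among the members. Its probe set 1437347_at stood at 7.75 and 7.71 on the Myc-depleted arrays, against 4.57 and 4.39 on the control arrays. The means were 7.73 ± 0.03 in Myc-depleted cells and 4.48 ± 0.13 in control cells (SD, n = 2 arrays each), a difference of 3.26, or 9.55-fold. Both Myc-depleted arrays were high and both control arrays low: the 4 comparisons of a single Myc-depleted with a single control array lay between 3.14 and 3.37. The control level fell below the low-value threshold, so the fold rests on a dim denominator, and the probe set passed the low-value threshold only through its Myc-depleted level. With values under the threshold raised to it, the difference was 2.65.

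The other Ednrb probe sets differed in the same direction but far less. Probe set 1426314_at read 5.10 and 5.32 on the Myc-depleted arrays, against 4.80 and 4.82 on the control arrays, a difference of 0.40 (1.32-fold) without overlap. Probe set 1423594_a_at read 4.76 and 5.40 on the Myc-depleted arrays, against 4.50 and 4.76 on the control arrays, a difference of 0.45 (1.37-fold). In this last probe set Myc-depleted array 1 and control array 2 were level to within 6e-05, and the difference was 0.13 without Myc-depleted array 2 and 0.77 without Myc-depleted array 1. Both of these probe sets had means below the low-value threshold, and a mean taken over all 3 probe sets of the gene gave 1.37. All 3 thus stood higher in Myc-depleted cells, and the size of the difference depends on the probe set.

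**Figure D1:**
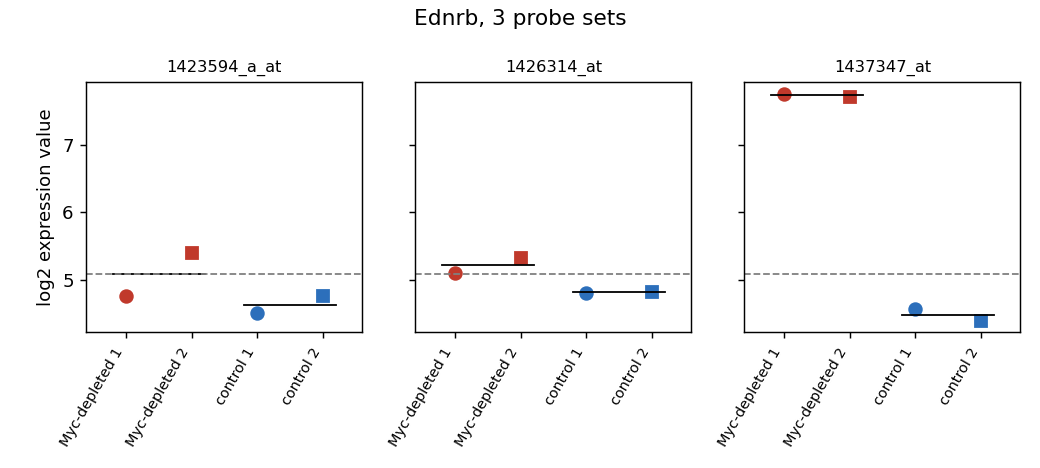
Log2 expression values (vertical axis) of the 3 Ednrb probe sets on each of the 4 arrays, Myc-depleted in red and control in blue, with a line at each group's mean and the low-value threshold of 5.08 dashed. Only 1437347_at shows a gap of over 3 between the groups; the other probe sets lie close to the threshold.

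Markers of the cells in which type B receptor expression is best known were partly above the low-value threshold. For the endothelium, 8 of 10 markers lay below the low-value threshold, Pecam1 and Cdh5 among them. Kdr and Esam lay above it and overlapped between groups. Of the dim markers, Erg (0.23), Vwf (0.20) and Cldn5 (0.06) were higher in Myc-depleted cells without overlap, and Pecam1 (-0.08) was lower without overlap. Array means of the endothelial list ran from 4.52 to 4.54 on Myc-depleted arrays, against 4.42 to 4.48 on control arrays. The list for lung capillary aerocytes had 2 of 4 genes below the threshold, Car4 and Tbx2, and 2 above it, Apln and Fibin, with array means of 5.30 to 5.51 on Myc-depleted arrays against 5.41 to 5.42 on control arrays. The melanocyte and Schwann cell list had 3 of 6 below, with array means of 5.67 to 5.75 on Myc-depleted arrays against 5.62 to 5.65 on control arrays. The pigment cell genes Tyr, Dct and Mlana were below the threshold, while Mitf and Sox10, regulators of that lineage, were above it and overlapped between groups. Pmel, which encodes a melanosome protein, was also above it and read 6.00 and 5.78 on the Myc-depleted arrays, against 5.53 and 5.74 on the control arrays (difference 0.26, no overlap). The part of such cells in the Ednrb values was not tested.

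Edn1, which encodes endothelin 1, differed in the opposite direction from Ednrb. Probe set 1451924_a_at read 6.05 and 6.09 on the Myc-depleted arrays, against 6.44 and 6.67 on the control arrays. The means were 6.07 ± 0.03 in Myc-depleted cells and 6.56 ± 0.16 in control cells (SD, n = 2 arrays each), so that the Myc-depleted level was 71.4% of the control level (difference -0.49). Both Myc-depleted arrays were below both control arrays, with single comparisons between -0.63 and -0.35.

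Edn2 and Edn3, the other ligand genes, were dim and mostly overlapped. Edn2, read by 1449161_at, stood at 4.48 and 4.52 on the Myc-depleted arrays, against 4.44 and 4.50 on the control arrays (difference 0.04). Edn3 had 4 probe sets, of which 1438696_at and 1441924_x_at passed the low-value threshold with means of 5.27 and 5.36. These read 5.35 and 5.15 on the Myc-depleted arrays against 5.19 and 5.39 on the control arrays, and 5.38 and 5.37 on the Myc-depleted arrays against 5.55 and 5.12 on the control arrays. In both, the control arrays lay on either side of at least 1 Myc-depleted array, and the differences were -0.04 and 0.04. Of the dimmer pair, 1421136_at overlapped (3.82 and 3.92 in Myc-depleted cells, 3.98 and 3.82 in control cells), and 1441923_s_at was lower on both Myc-depleted arrays (4.54 and 4.54, against 4.89 and 4.60) by a gap of 0.06. The endings s and x mark probe sets with probes shared between transcripts, which is a further limit on the Edn3 values.

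**Figure D2:**
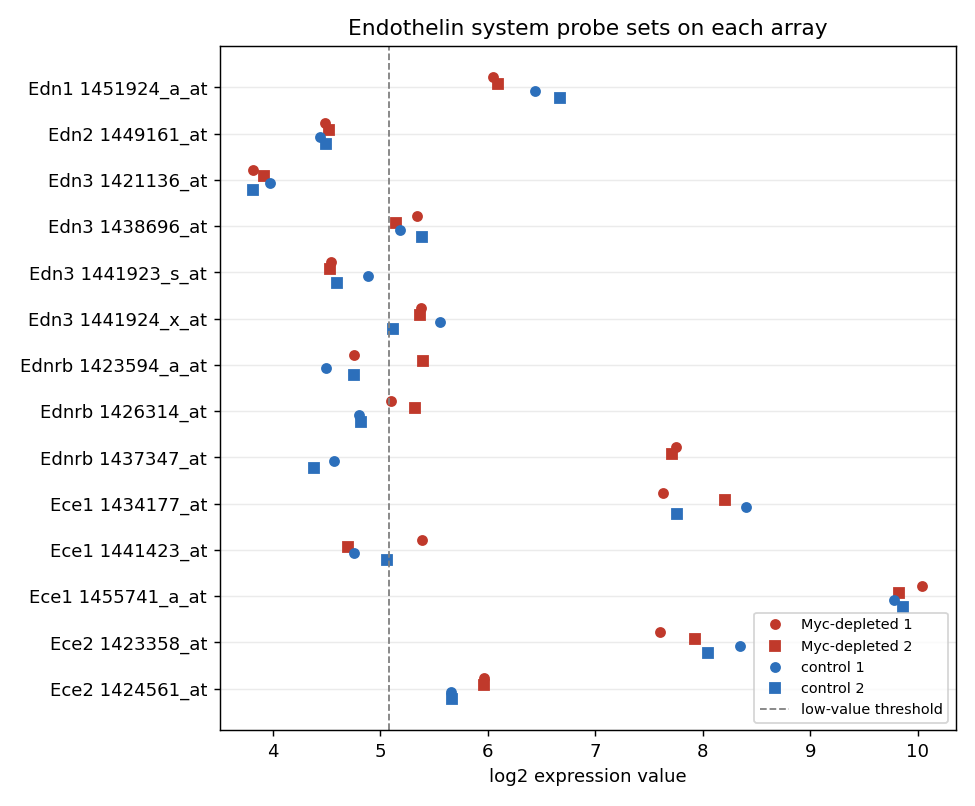
Log2 expression value (horizontal axis) of each of the 14 endothelin system probe sets on the 4 arrays, with Myc-depleted arrays in red and control arrays in blue; circles are arrays numbered 1, squares arrays numbered 2, and the dashed line is the low-value threshold of 5.08. The wide gap is that of Ednrb 1437347_at, while 7 of the 14 probe sets overlap between groups.

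Ece1, which encodes the main endothelin-converting enzyme, did not separate the groups in any of its 3 probe sets. Probe set 1455741_a_at read 10.04 and 9.82 on the Myc-depleted arrays, against 9.78 and 9.86 on the control arrays (difference 0.11). Probe set 1434177_at read 7.63 and 8.21 on the Myc-depleted arrays, against 8.40 and 7.76 on the control arrays (difference -0.16, single comparisons between -0.77 and 0.45). Probe set 1441423_at, below the low-value threshold, read 5.39 and 4.70 on the Myc-depleted arrays, against 4.76 and 5.06 on the control arrays (difference 0.13).

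The order of the arrays within each group ran either with or against the spike-in controls in Ece1. Probe set 1434177_at was higher on Myc-depleted array 2 and control array 1, the arrays with the smaller 3′ excess, and the other probe sets were both higher on the array with the larger excess within each group. Comparing only arrays with a like excess, 1434177_at differed by -0.19 between the arrays with the smaller excess and by -0.13 between those with the larger. The same comparisons gave 0.04 and 0.18 for 1455741_a_at and -0.06 and 0.33 for 1441423_at. The part of RNA quality or labelling in these values was not tested. Such an order was not particular to Ece1, since deviations of same-numbered arrays correlated at -0.766. Ece2 1423358_at was ordered like 1434177_at, with 7.60 and 7.93 on the Myc-depleted arrays and 8.35 and 8.05 on the control arrays. Edn1 was not, with 6.05 and 6.09 on the Myc-depleted arrays and 6.44 and 6.67 on the control arrays.

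**Figure D3:**
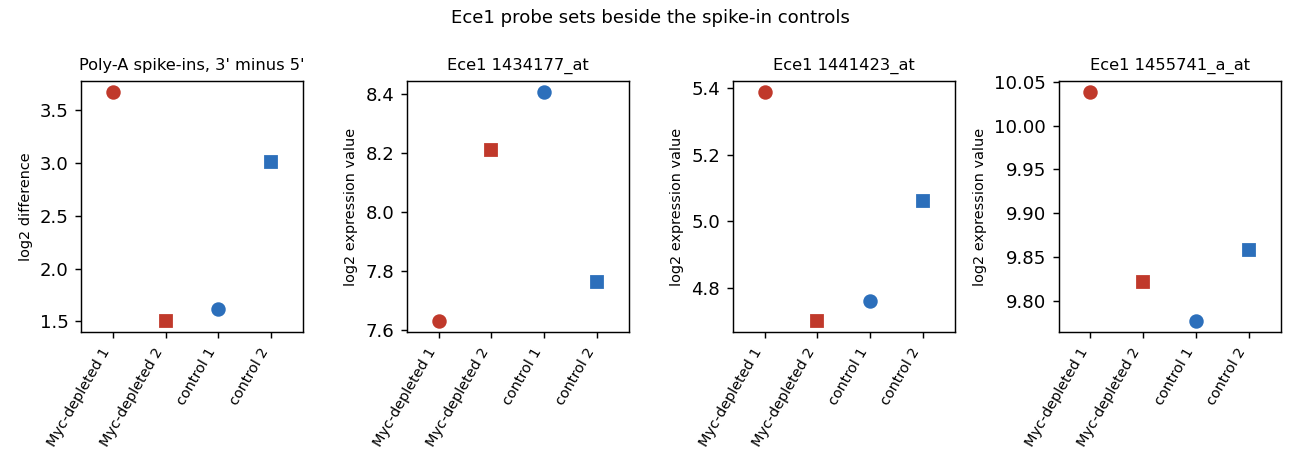
The left panel gives the 3′ minus 5′ log2 difference of the poly-A spike-in controls on each array, and the other panels the log2 expression values of the 3 Ece1 probe sets, each on its own scale that does not start at 0; Myc-depleted arrays are red and control arrays blue. The arrays with the spike-in values 3.67 and 3.01 are the lower ones of each group for 1434177_at and the higher ones for 1441423_at and 1455741_a_at.

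Ece2 encodes a related converting enzyme that works at acidic pH, and its 2 probe sets pointed opposite ways. Probe set 1423358_at read 7.60 and 7.93 on the Myc-depleted arrays, against 8.35 and 8.05 on the control arrays, lower by 0.12 to 0.74 in single comparisons (difference -0.43, and -0.27 without Myc-depleted array 1). Probe set 1424561_at read 5.97 and 5.96 on the Myc-depleted arrays, against 5.66 and 5.66 on the control arrays, with a difference of 0.30. Neither probe set overlapped between groups, and their mean differed by -0.07. RefSeq lists a readthrough with Eef1akmt4 among the synonyms of this locus, and which transcript each probe set reads was not tested. The Ece2 values therefore give no single direction for the gene.

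Over all 14 member probe sets, 4 were higher in Myc-depleted cells without overlap, 3 were lower without overlap and 7 overlapped. Of all probe sets on the array, 21.9% were higher without overlap, 16.4% were lower without overlap, and 38.3% did either. Of the 14, 1 was over 2-fold higher, beside 0.469% of all probe sets, and 0 were over 2-fold lower. The rule for members used this same contrast, so nothing is read from these counts. The median difference of the 14 was 0.04, against 0.01 over all probe sets, whose quartiles were -0.12 and 0.13. Without Ednrb 1437347_at, the other 13 ranged between -0.49 and 0.45.

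**Figure D4:**
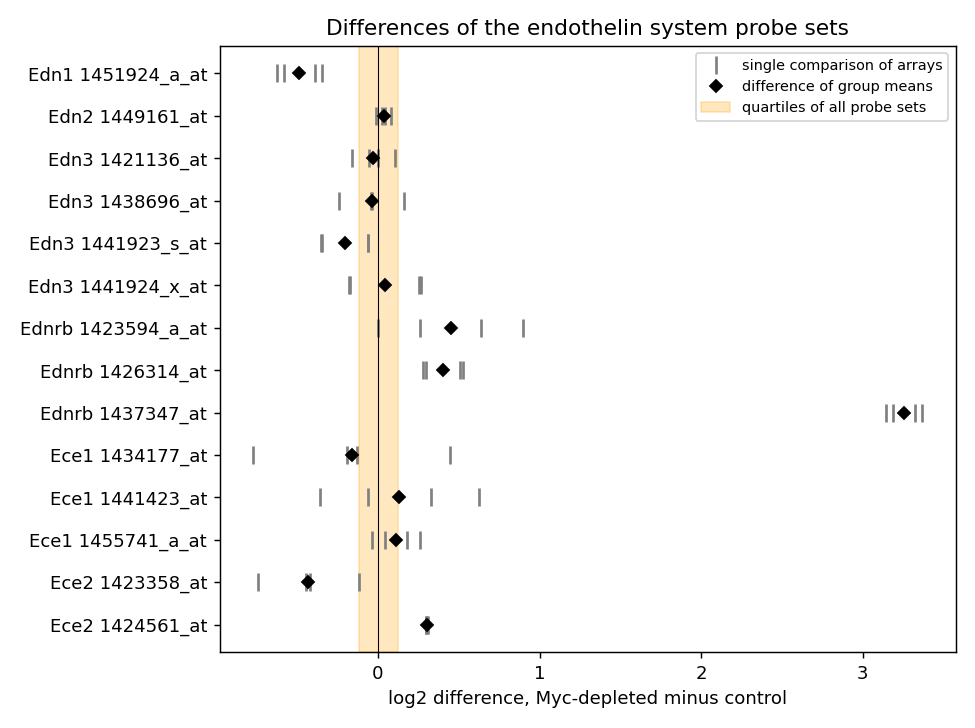
Log2 difference, Myc-depleted minus control (horizontal axis), of the 14 endothelin system probe sets, with diamonds for the difference of group means, ticks for the 4 comparisons of single arrays, and a band between the quartiles of all probe sets (-0.12 and 0.13). Ednrb 1437347_at lies at 3.26, and the other 13 probe sets lie between -0.49 and 0.45.

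The genes with the pattern most like that of Ednrb were found by the root mean square distance between log2 values over the 4 arrays, each gene's own mean over the arrays subtracted first, among 12,588 other genes, each read by its tested probe set with the highest mean. The closest was Tfpi, which encodes a coagulation inhibitor acting on tissue factor, at a distance of 0.184. It read 11.26 and 10.97 on the Myc-depleted arrays, against 7.74 and 7.39 on the control arrays (difference 3.55). Then came Adgrg2, an adhesion G protein-coupled receptor (0.313), Slco2a1, a prostaglandin transporter (0.372), Satb1, a chromatin organizer (0.469), Pogk (0.591) and Tmem158 (0.601). Their differences lay between 2.09 for Pogk and 3.93 for Slco2a1. For Edn1 the closest were Fbxo30 (0.00589), Cdc42bpa, Mark2, Gars, Hapln4 and Krt80 (0.0344), whose differences lay between -0.51 and -0.43. With 4 arrays, likeness here is mostly likeness in the group difference.

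Genes that act before and after the receptors were described from 5 lists. None of their tested genes passed the limma test at an adjusted p under 0.05, so the values below are differences and not changes. In the list for ligand processing and breakdown, 8 of 12 genes were tested, 0 passed in either direction, and 2 had an unadjusted limma p under 0.05, both higher. Mme, or neprilysin, a protease that degrades endothelins, read 10.48 and 9.96 on the Myc-depleted arrays, against 8.92 and 9.42 on the control arrays. Its difference was 1.05, with 0.56 for its other tested probe set, and the groups did not overlap. Ctsa, cathepsin A, differed by 0.50, with 0.25 for its other tested probe set. Pcsk6, a proprotein convertase, differed by 0.40, with single comparisons between 0.05 and 0.76. Furin, the convertase that makes the first cut of the precursor, differed by -0.11, and Ide, the insulin-degrading enzyme, by -0.21, with its 5 tested probe sets between -0.87 and -0.04. The median of the list was 0.06, against 0.02 over all genes tested.

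In the list for G protein and phospholipase C coupling, 15 of 15 genes were tested and 0 passed, with an unadjusted p under 0.05 for 2 higher and 3 lower. Gnai1, an inhibitory G protein alpha subunit, read 4.30 and 4.91 on the Myc-depleted arrays, against 6.11 and 6.73 on the control arrays (difference -1.82, and -0.61 for its other tested probe set). Both of these Myc-depleted values lay below the low-value threshold, so the size of the difference is uncertain. Plcb4, a phospholipase C, read 10.20 and 9.59 on the Myc-depleted arrays, against 8.95 and 9.10 on the control arrays (difference 0.87, and at least 0.53 over its 4 tested probe sets). Plcb3, of the same family, differed by -0.55. Gna11, an alpha subunit through which the receptors reach phospholipase C, differed by 0.39, and Gnaq, its close relative, by 0.01, with its 7 tested probe sets between -0.39 and 0.25. Members of this list thus stood on both sides of 0, with a median of 0.07.

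For receptor desensitisation and Rgs proteins, which shorten G protein signals, 12 of 15 genes were tested and 0 passed, with 2 at an unadjusted p under 0.05, both higher. Rgs2 differed by 0.59, but by as little as 0.11 over its 3 tested probe sets, and the receptor kinase Grk4 by 0.43. Rgs5, which is known from pericytes, differed by -0.34 (-0.53 to -0.34 over 3 probe sets) and Grk6 by -0.22 (-0.69 to -0.22 over 3). The list's median was 0.11. For calcium and kinase steps, 15 of 22 genes were tested and 0 passed, with 1 lower at an unadjusted p under 0.05. That gene was Itpr3, an inositol trisphosphate receptor that releases calcium from the endoplasmic reticulum. It read 6.90 and 6.63 on the Myc-depleted arrays, against 8.24 and 8.20 on the control arrays (difference -1.46). Stim1, a sensor of that calcium store, differed by 0.34 and Ptk2b by -0.22. Camk2d differed by 0.23, with its 4 tested probe sets between -0.51 and 0.23, so that its sign depends on the probe set. The list's median was -0.01.

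Transcription factors tied to Edn1 or to the receptor genes made up the last of these lists. Of 21 genes, 17 were tested and 0 passed, with 2 at an unadjusted p under 0.05, both higher. Klf2, an endothelial shear-response factor known to repress Edn1, read 8.58 and 8.67 on the Myc-depleted arrays, against 7.71 and 8.01 on the control arrays (difference 0.77). Gata4 differed by 0.51, and Pax3 and Arnt by 0.21 each, with the 4 tested probe sets of Arnt between -0.18 and 0.37. Sox10 and Mitf, which act with Ednrb in pigment cells, differed by 0.10 and 0.03 and overlapped between groups. The median of the list was 0.15, and 15 of its 17 genes had a positive difference, against 6,803 of all 12,589 genes tested. This list too was chosen with earlier results of these data known, so nothing is read from that count.

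**Figure D5:**
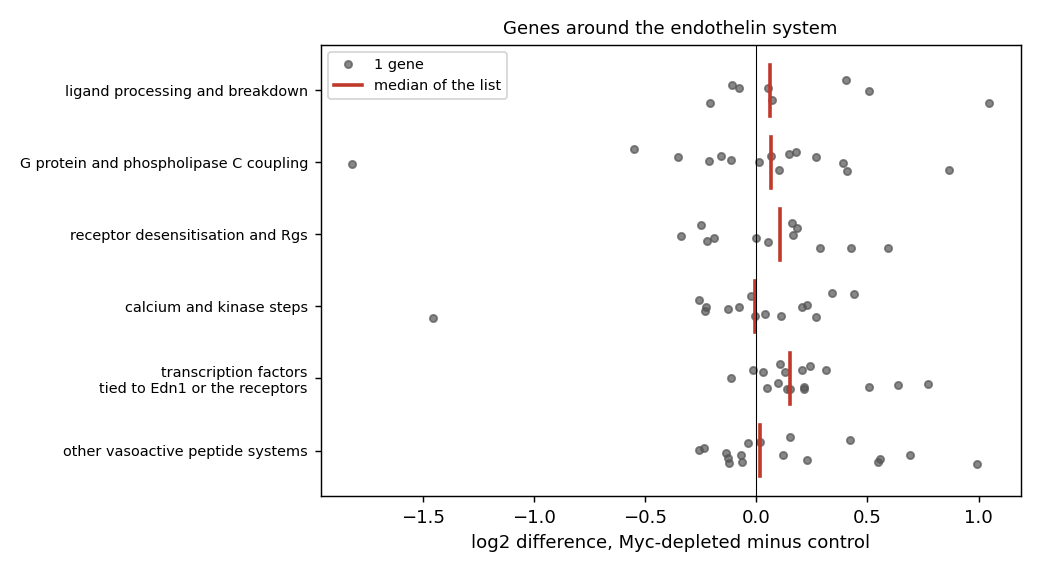
Log2 difference, Myc-depleted minus control (horizontal axis), of each tested gene in 6 lists around the endothelin system, with 1 point per gene and a bar at each list's median. Most points lie within 0.5 of 0, and the medians lie between -0.01 and 0.15; Gnai1 (-1.82) and Itpr3 (-1.46) stand lowest and Mme (1.05) highest.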

How the data were processed

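Total RNA of BASCs was read on single-colour Affymetrix Mouse Genome 430 2.0 arrays, 2 from Myc-depleted and 2 from control cells, grouped by their labels. The authors deposited log2 expression values. In the paper's methods these come from Partek Genomics Suite 6.4 with the Robust Multichip Average, while the submitters' processing notes name Partek 6.4 with GCRMA. The sources leave unsettled which procedure was used, and low values would differ most between them. The number of arrays limits the precision.

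Of 45,101 probe sets, 64 controls were left out. Gene names came from the platform annotation. Those with several symbols (932) or without a symbol (9,160) entered the tests unnamed. Probe sets with a mean under the 40th percentile were left out of the tests, which left 27,022. limma 3.58.1 in R 4.3.3 (lmFit, eBayes) compared the groups, with Benjamini-Hochberg adjustment over all probe sets tested and 2 residual degrees of freedom. It was also run on simulated data whose noise was independent between arrays. Those data lacked the crossed pattern of the real arrays, so that run is no check on it. Each other gene was represented by its brightest tested probe set, which gave 12,589 genes.

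The members and the gene lists were chosen with earlier results of these data known. The genes named were every member probe set, Myc, up to 4 genes per list by smallest unadjusted p with others needed to describe the list, and 6 nearest genes each for Ednrb and Edn1. Marker genes were also named, some of them after their values were seen. Alternatives covered the filter, scaling, a floor, the test, the probe set per gene, the replicate block and each array left out.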

Additional observations from a re-analysis of the deposited data

How the results depend on the processing

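Under 11 alternatives (scaling, a floor, each array left out, the replicate block and settings built on the spike-in controls), 7 of the 14 member probe sets kept the sign of their difference: Edn1, all 3 of Ednrb, Ece1 1455741_a_at and both of Ece2. The other 7, which are Edn2, the 4 of Edn3 and 2 of Ece1, changed sign or reached 0 in at least 1. Leaving out or matching arrays reuses the same array values, so a probe set without overlap cannot change sign there. The count of kept signs thus mostly restates which probe sets overlap, and is no separate support. Ednrb 1423594_a_at kept its sign with a lowest value of 6e-05. Ednrb 1437347_at lay between 2.65 and 3.37, at 2.65 with values under the low-value threshold raised to it, and at 1.37 as the mean of its 3 probe sets. A filter at the 60th percentile removed that probe set, so that 0 in place of 1 member probe set passed with a difference over 1 and no overlap. With the replicate block, which pairs arrays by number, 0 probe sets were called and 306 in place of 316 met the fold and unadjusted p thresholds. In this balanced layout the block cannot alter a group difference, so Ednrb at 3.26 there is no check. Deviations of same-numbered arrays correlated at -0.766, so the numbers were not taken as pairs. 2 fits chosen after seeing the data called more probe sets: 21 with the pairing crossed, and 3171 with the spike-in difference as a covariate. The methods' ANOVA gave 207 at the fold and unadjusted p thresholds. Leaving out 1 array gave 286 to 830 there, with 568 without Myc-depleted array 1 and 830 without Myc-depleted array 2, and 0 adjusted calls in each case. The lone array of a group was then assumed to vary like the other group. Medians of the related lists lay near 0, and all but that of the transcription factors crossed it under at least 1 alternative. The cause of these shifts was not tested. Values below log2 5.08 limit what can be said of Edn2, 2 of the 4 Edn3 probe sets, 1 of Ece1, 2 of Ednrb and the control level of the third Ednrb probe set.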

Other observations

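Other peptide systems that set vascular tone were dim or overlapping for the most part. Of 36 genes for angiotensin, adrenomedullin, natriuretic peptides, vasopressin, apelin and related systems, 33 were listed and 17 passed the low-value threshold. limma called 0 of the 17 at an adjusted p under 0.05, and 3 had an unadjusted p under 0.05, all higher in Myc-depleted cells. Npr3, the natriuretic peptide clearance receptor, read 9.16 and 8.88 on the Myc-depleted arrays, against 8.33 and 7.74 on the control arrays (difference 0.99, and at least 0.36 over its 3 tested probe sets). Agtr1a, the type 1 angiotensin receptor, read 6.13 and 5.83 on the Myc-depleted arrays, against 5.25 and 5.32 on the control arrays (difference 0.69). Adm, which encodes adrenomedullin, read 11.32 and 11.51 on the Myc-depleted arrays, against 10.83 and 10.89 on the control arrays (difference 0.56). Agt, the angiotensin precursor, differed by 0.42. None of these 4 genes overlapped between groups, and the median of the list was 0.02, against 0.02 over all genes tested.

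Over all 84 tested genes of the 6 related lists, 15 (17.9%) had an unadjusted limma p under 0.05, 11 higher and 4 lower, against 12.2% of all 12,589 genes tested. The smallest adjusted p among them was 0.263. The lists were chosen with earlier results of these data known, so nothing is read from these shares.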
